A study of Mus musculus with 12 samples.

Results

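Out of 57010 rows of a count table from the mouse microglial cell line BV2, 2 rows estimated to hold reads of an acute-phase gene, Saa3, and a complement gene, C3, are described here. The rows were chosen by identifier. ENSMUSG00000111473 is labelled LOC102637012 and is estimated to hold reads of Saa3, and ENSMUSG00000024212 is labelled Mllt1 and is estimated to hold reads of C3. Earlier results of these data led to that choice: the first row had stood out between LPS_EV and control_EV, and the second between LPS_EV and TGFB_EV. Those 2 differences are therefore given as a description, without a p-value.

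The wells held resting BV2 cells that received extracellular vesicles (EVs), small membrane particles shed by cells, for 24 h. Every group, the control included, received vesicles, so no group shows cells without them. The control_EV and LPS_EV wells had vesicles from untreated BV2 cells and from BV2 cells given LPS, the bacterial ligand of Toll-like receptor 4. The TGFB_EV and IL10_EV groups are labelled only by their TGF-B or IL-10 vesicles. Each of the 4 groups had 3 libraries, with totals between 10497757 and 13647007 counts. Nothing in the labels says that the libraries came from separate cultures, so each p-value is against the spread among these libraries only, which may be technical.

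Serum amyloid A (SAA) proteins are small acute-phase proteins. The liver secretes SAA1 and SAA2 into blood, whereas Saa3 of the mouse is made mainly outside the liver, with activated macrophages a known source. C3 is the component on which the classical, lectin and alternative complement pathways converge. Its cleavage products tag targets for uptake through complement receptors, and microglia carry such receptors.

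The names of these rows rest on an estimate. The rows labelled Saa3 and C3 themselves had 0 counts in all 12 libraries, and labels and levels were at odds in many other rows. When the exons of all rows were moved along the chromosomes (GRCm38, GENCODE M21), only 20.6% of the 7296 rows of at least 5 CPM (counts scaled to a common library total) met the gene they are labelled with, whereas 94.2% met some protein-coding exon, which is what the fit looks for. The row labelled LOC102637012 lies at chr7:47057353-47074687 and has 18 exons of 2562 bp together. Its stretch of 1709 rows was placed 350.7 kb lower, where its exons share 316 bp with Saa3 (chr7:46711998-46715700, minus strand, 4 exons) and 39 bp with its neighbour Saal1. Only 26 of the 316 bp lie in exons of the coding transcript. The rest lie between those exons, in bases annotated as exon only in other Saa3 transcripts. The row labelled Mllt1 lies at chr17:56892611-56935415 and has 14 exons of 3918 bp. Its stretch of 414 rows was placed 306.8 kb higher, where it shares 229 bp with C3 (chr17:57203970-57228136, minus strand, 41 exons), all of it coding.

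Both placements were the same when the score of the member row was left out, with its stretch kept as fitted. In stretches of 1709 and 414 rows a single row has little weight, so this says little about the gene met. For moves up to 500 bp to either side, the Saa3 overlap ran from 290 to 713 bp and the C3 overlap from 64 to 355 bp, and no further protein-coding gene was met. The part of the Saa3 overlap in the coding transcript ran from 0 to 246 bp over the same moves, so the 26 coding bases are not a fixed part of the match. No other row had Saa3 or C3 as the gene it shared the most bases with. The level of each row therefore stands for reads over a small stretch of a gene and not for the whole transcript, and levels are not compared between the 2 genes.

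Exons of the coding transcripts that the displaced rows overlap are printed 5′ to 3′ on the gene's strand, from GENCODE M21 transcripts. They show which coding bases each placed row covers. For Saa3 these are 26 of the 316 bp shared with the gene, and the other shared bases are not printed. Capitals mark the bases under a displaced row exon. The first is Saa3 exon 3 at chr7:46712589-46712727 and holds 26 such bases. The C3 row falls on exon 2 at chr17:57226693-57226882 with 83 bases, on exon 28 with 51, on exon 32 at chr17:57209411-57209501 with 78, and on exon 40 with 17; the 2 exons with the most bases are shown.
Saa3 exon 3: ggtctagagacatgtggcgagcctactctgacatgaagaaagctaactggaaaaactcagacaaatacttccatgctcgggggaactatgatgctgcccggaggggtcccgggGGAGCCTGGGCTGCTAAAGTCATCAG
C3 exon 2: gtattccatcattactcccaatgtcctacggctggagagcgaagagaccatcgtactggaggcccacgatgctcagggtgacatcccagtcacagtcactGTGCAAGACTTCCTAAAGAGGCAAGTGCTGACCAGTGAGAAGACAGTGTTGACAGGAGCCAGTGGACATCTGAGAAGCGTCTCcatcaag
C3 exon 32: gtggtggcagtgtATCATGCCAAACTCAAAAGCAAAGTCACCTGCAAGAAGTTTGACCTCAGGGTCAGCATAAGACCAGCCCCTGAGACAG

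The 250 bases before each start site (RefSeq, GRCm38.p6) are printed for reference. Whether they bear on the levels of the rows was not tested. C/EBP factors are known regulators of acute-phase genes, and capitals mark their core motif TTGCNNAA, searched on both strands. The motif began 99 bases before the RefSeq start in Saa3 (chr7:46715677-46715926, minus strand) and 45 bases before it in C3 (chr17:57228137-57228386, minus strand). The RefSeq start of Saa3 lies within GENCODE exon 1 (chr7:46715647-46715700). The last bases of the Saa3 window therefore belong to that exon, and the motif is nearer to the GENCODE start.
Saa3 promoter: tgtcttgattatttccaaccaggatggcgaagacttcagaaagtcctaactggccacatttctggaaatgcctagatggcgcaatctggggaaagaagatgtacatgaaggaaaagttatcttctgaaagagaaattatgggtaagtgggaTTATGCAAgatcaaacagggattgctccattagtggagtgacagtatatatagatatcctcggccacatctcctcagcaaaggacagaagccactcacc
C3 promoter: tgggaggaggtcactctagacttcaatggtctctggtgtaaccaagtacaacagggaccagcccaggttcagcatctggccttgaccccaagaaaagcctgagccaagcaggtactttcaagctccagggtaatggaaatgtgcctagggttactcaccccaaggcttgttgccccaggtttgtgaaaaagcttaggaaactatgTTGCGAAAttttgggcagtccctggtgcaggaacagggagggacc
The C/EBP core was present in 9.56% of 32851 promoter windows of this length. The NF-kB consensus had 0 matches in either window and was present in 7.25% of all windows. These are matches of letters in a window and no evidence of binding.

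Before the results, 2 libraries stood apart from the rest of their groups. A chi-square of the counts over all rows, divided by its degrees of freedom, was 18.7 and 24.8 between IL10_EV replicate 2 and the other IL10_EV libraries, and 10.01 and 16.9 between TGFB_EV replicate 3 and the others of its group. The other pairs within groups lay between 3.58 and 5.92, so no library was a duplicate of another. Values without these libraries are given with the comparisons of their groups.

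The row estimated to hold Saa3 was high after LPS vesicles and after IL-10 vesicles, and low after control and TGF-B vesicles. Levels below are CPM scaled by TMM, a correction for library composition. In control_EV, replicates 1, 2 and 3 had 118, 192 and 159 CPM, from 1233, 2240 and 1923 counts. In LPS_EV they had 262, 873 and 654 CPM, from 2867, 10048 and 7302 counts. Every LPS_EV library lay above every control_EV library, with replicate 1 well under the other two. In TGFB_EV the row had 126, 118 and 79.1 CPM, from 1455, 1373 and 989 counts. In IL10_EV it had 249.8, 1018 and 412 CPM, from 3359, 13168 and 5642 counts. The TGFB_EV values overlapped control_EV, and the IL10_EV values lay above it, with 1 library higher than any other of the 12.

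The mean was 596 ± 309 CPM in LPS_EV and 559.99 ± 405 CPM in IL10_EV, against 156 ± 37.1 CPM in control_EV and 108 ± 25.3 CPM in TGFB_EV (SD, n = 3 each). Within LPS_EV the highest library was 3.33 times the lowest and within IL10_EV 4.08 times, against 1.63 times in control_EV and 1.60 times in TGFB_EV. Across all 12 libraries the span was 12.9-fold. Whether more of the cells carried the RNA or each cell carried more of it cannot be told apart in bulk RNA.

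**Figure D1:**
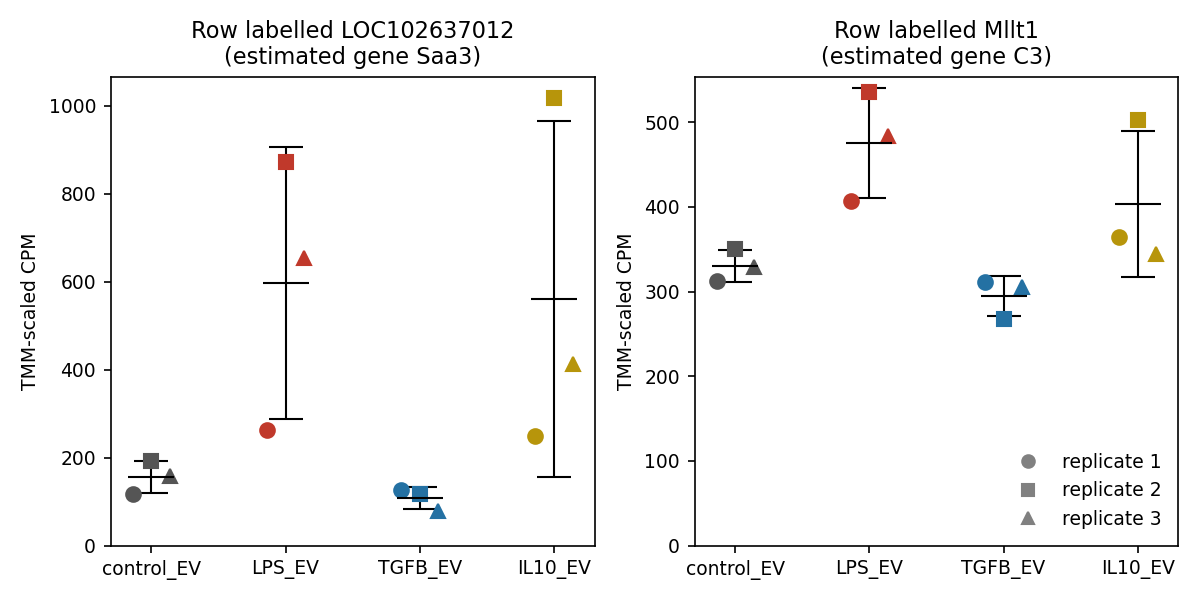
TMM-scaled CPM (linear axes from 0) of the row labelled LOC102637012, estimated to hold Saa3, and of the row labelled Mllt1, estimated to hold C3, in 4 groups of 3 libraries. Points are libraries, with the marker giving the replicate number, and the bars are the mean and SD. The Saa3 row reaches 873 CPM in LPS_EV and 1018 CPM in IL10_EV and stays at or under 192 CPM in control_EV and TGFB_EV; the C3 row has the same order of group means over a narrower range.

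For LPS_EV against control_EV, the difference in the Saa3 row was 1.94 on the log2 scale, which is 3.82-fold. Its SE was 0.23 by edgeR and 0.52 by DESeq2, so its precision depended on the method. This contrast chose the row, so it is a description. Groups without overlap, higher in LPS_EV, were found in 8.04% of the 10523 rows tested, and 0.817% passed an adjusted p of 0.05 by edgeR's quasi-likelihood test. Leaving out a library gave between 1.55 and 2.29.

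For IL10_EV against control_EV the difference was 1.84 on the log2 scale (SE 0.39), a 3.59-fold higher level in IL10_EV. All 3 IL10_EV libraries were higher than all 3 control_EV libraries, as in 4.49% of the 10613 rows. The difference did not pass edgeR's test after adjustment (adjusted p = 0.9996). Its unadjusted edgeR p of 0.000562 ranked 2, but among 10613 rows some p-values this small arise without any difference. In this comparison edgeR called 0 rows (0%) and DESeq2 1. At an unadjusted edgeR p of 0.05 there were 334 rows, fewer than that threshold gives if no row differed. Without IL10_EV replicate 2, the library that stood apart, the difference in the Saa3 row was smaller, at 1.08 (SE 0.16), and passed (edgeR adjusted p = 0.0125).

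For TGFB_EV against control_EV the Saa3 row differed by -0.53 (SE 0.17) without passing edgeR's test (adjusted p = 0.671, unadjusted 0.00622), and the groups overlapped. Without TGFB_EV replicate 3, the lowest library, it was -0.35 (adjusted p = 0.133). Only 0.038% of 10524 rows were called in this comparison. These comparisons share the control_EV libraries with the contrast that chose the row.

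Pairs of treatments were tested in a fit of all 12 libraries. For LPS_EV against TGFB_EV the Saa3 row was 5.53-fold apart (log2 2.47, SE 0.43, edgeR adjusted p = 0.0585), just short of the threshold. The 3 LPS_EV values lay above the 3 TGFB_EV values, as in 9.83% of 11267 rows. With the 6 libraries of these groups alone the same difference had an adjusted p of 0.00194, and without IL10_EV replicate 2 in the larger fit one of 0.000158. Without TGFB_EV replicate 3 it was 2.28 (adjusted p = 0.0293). All of these use the LPS_EV libraries of the contrast that chose the row, so they are not independent of that choice. In the fit of all libraries edgeR called 0 rows (0%), against 1442 at an unadjusted p of 0.05 and 106 by DESeq2.

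For TGFB_EV against IL10_EV, groups that did not enter the contrast that chose it, the Saa3 row was lower in TGFB_EV. The log2 difference was -2.38 (SE 0.43, edgeR adjusted p = 0.162), with the spread estimated from all 12 libraries. Only a fit of the 6 libraries of these groups is free of the libraries that chose the row. It gave -2.37 (edgeR adjusted p = 0.735). The highest TGFB_EV library, at 126 CPM, lay under the lowest IL10_EV library, at 249.8 CPM; 5.13% of rows had groups ordered in this way. Without IL10_EV replicate 2 the difference was -1.62 (adjusted p = 0.246), and without TGFB_EV replicate 3 it was -2.19 (adjusted p = 0.109). Again edgeR called 0 rows (0%), against 842 with an unadjusted p under 0.05 and 11 by DESeq2.

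LPS_EV and IL10_EV were not told apart in the Saa3 row. Their difference was 0.09 with an SE of 0.40 (edgeR adjusted p = 0.995), and both groups spanned much the same levels. The SE is too wide to show that they were alike. The sign depended on single libraries: it was -0.29 without LPS_EV replicate 2 and 0.84 without IL10_EV replicate 2. Ordered by mean, the groups ran TGFB_EV, control_EV, IL10_EV, LPS_EV, and no pair of neighbours in that order passed edgeR's test with all libraries, the filter on low counts and no replicate block.

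The row estimated to hold C3 was higher after LPS vesicles than after control vesicles, by 1.44-fold. In control_EV its replicates 1, 2 and 3 had 313, 349.8 and 329 CPM, from 3279, 4090 and 3986 counts. In LPS_EV they had 407, 535 and 483 CPM, from 4444, 6163 and 5401 counts. All LPS_EV values exceeded all control_EV values, and replicate 1 was again the lowest of the LPS_EV group. In TGFB_EV the row had 311, 267 and 305 CPM, from 3577, 3103 and 3818 counts. In IL10_EV it had 364, 502 and 344 CPM, from 4899, 6496 and 4712 counts. TGFB_EV lay just under control_EV, and in IL10_EV only replicate 2 lay above any LPS_EV replicate.

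The C3 row averaged 475 ± 64.8 CPM in LPS_EV, 404 ± 86.1 CPM in IL10_EV, 330.4 ± 18.6 CPM in control_EV and 294 ± 23.8 CPM in TGFB_EV (SD, n = 3 each), the same order as in the Saa3 row. Here too no pair of neighbours in that order passed edgeR's test. The span over 12 libraries was 2.00-fold. LPS_EV exceeded control_EV by 0.53 on the log2 scale (SE 0.07, edgeR adjusted p = 0.000198), ranking 5 by p among 10523 rows, of which 57 were called higher (0.542%). This contrast shares the LPS_EV libraries with the one that chose the row. The call held without each library in turn, with differences from 0.43 to 0.62 and adjusted p up to 0.0100. It was lost when all 12 libraries shared 1 estimate of the spread, with an adjusted p of 0.424 at a difference of 0.52; in that fit edgeR called 0 rows for this comparison.

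No other tested difference of the C3 row passed. IL10_EV against control_EV, which shares no library with the contrast that chose the row, gave 0.29 (SE 0.12, edgeR adjusted p = 0.9996), with overlap, and 0.10 (adjusted p = 0.750) without IL10_EV replicate 2. TGFB_EV against control_EV gave -0.17 (SE 0.07, edgeR adjusted p = 0.789). Its groups did not overlap, but the highest TGFB_EV value, 310.7 CPM, lay barely under the lowest control_EV value, 312.7 CPM, and 5.51% of rows had TGFB_EV wholly lower. Without TGFB_EV replicate 3 the difference was -0.20 (adjusted p = 0.130).

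LPS_EV exceeded TGFB_EV in the C3 row by 0.69 (SE 0.12), or 1.61-fold, without overlap. That contrast chose the row and carries no test; the difference was 0.71 without TGFB_EV replicate 3. LPS_EV against IL10_EV gave 0.24 (SE 0.12, edgeR adjusted p = 0.850), and 0.42 (SE 0.09, adjusted p = 0.1001) without IL10_EV replicate 2, over a range of 0.13 to 0.42 when single libraries were left out. The 2 groups overlapped, and edgeR called 0 rows (0%) and DESeq2 1. Of 11267 rows, 634 had an unadjusted edgeR p under 0.05, about the share that threshold gives if no row differed. TGFB_EV against IL10_EV gave -0.45 (SE 0.12, edgeR adjusted p = 0.570) without overlap, with -0.27 (adjusted p = 0.979) without IL10_EV replicate 2 and -0.48 (adjusted p = 0.160) without TGFB_EV replicate 3.

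Within groups the levels of both rows tended to go together, but the p-values below depended on single libraries. Both rows were chosen for differences that involve LPS_EV, so their likeness between groups is partly built in. Each library's log2 CPM was taken as its deviation from the mean of its group, which removes the group differences that chose the rows. LPS_EV replicate 1 lay low in both (-1.02 for Saa3 and -0.22 for C3), and IL10_EV replicate 2 lay high in both (1.11 and 0.34). In 9 of 12 libraries the deviations had the same sign. TGFB_EV went the other way in part: its replicate 3 had -0.42 for Saa3 and 0.06 for C3.

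Over the 12 libraries Pearson's r of these deviations was 0.821 (exact permutation p = 0.0440, two-sided, over 1296 reassignments within groups) and Spearman's rho was 0.790 (exact permutation p = 0.0278). Both had a Benjamini-Hochberg value of 0.0440 over these 2 tests. The reassignments take the libraries of a group as exchangeable. An effect shared by libraries of the same replicate number was not tested. Without the 2 libraries farthest from the median of the Saa3 deviations, replicate 1 of LPS_EV and of IL10_EV, r was 0.773 (exact permutation p = 0.236) and rho 0.806 (exact permutation p = 0.104), so the p no longer passed although the coefficients changed little. The call was also lost in 9 of the 12 cases in which a single library was left out, with an exact permutation p of up to 0.181, reached without IL10_EV replicate 2 (r = 0.656).

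**Figure D2:**
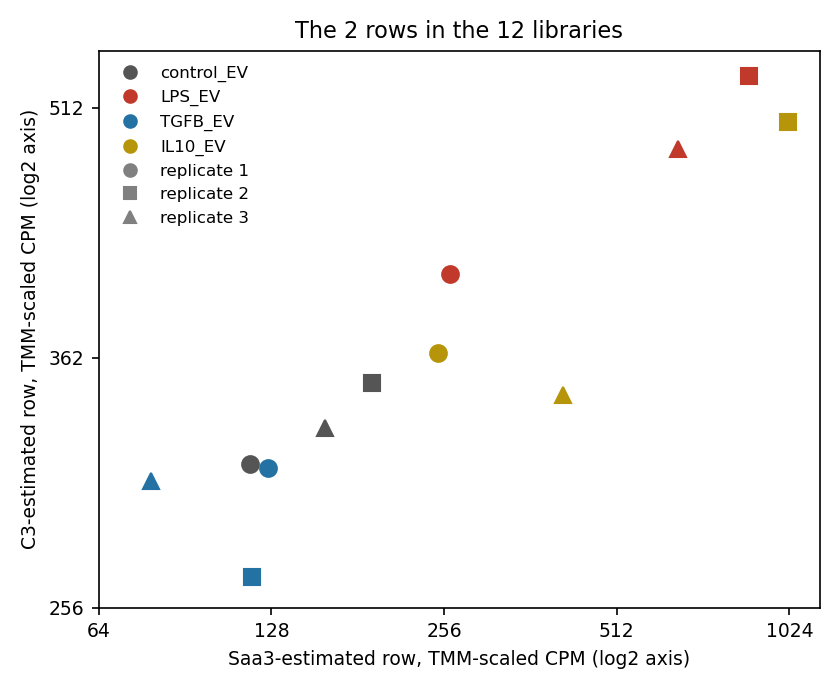
TMM-scaled CPM of the row estimated to hold Saa3 (x axis) and of the row estimated to hold C3 (y axis), both on log2 axes, in 12 libraries. Colour gives the group and marker shape the replicate number. LPS_EV replicates 2 and 3 and IL10_EV replicate 2 lie at the upper right, and control_EV and TGFB_EV lie at the lower left with at most 192 CPM for Saa3 and at most 349.8 CPM for C3.

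None of the nearest rows to either member passed a test against control_EV. Of all rows, 0.817% were called in LPS_EV, 0.038% in TGFB_EV and 0% in IL10_EV, so 0 calls among so few rows does not set them apart. The 4 nearest rows of at least 5 CPM on each side of the Saa3 row had differences between -0.09 and 0.35 for LPS_EV against control_EV. For TGFB_EV they lay between -0.50 and 0.24 and for IL10_EV between -0.09 and 0.23, and 0 of 8 passed in any comparison. Those labelled Otog, Kcnc1, Htatip2 and Gm44822 are far off, centred at 790, 649, -2700 and -2751 kb from the start of Saa3 (positive downstream). Saal1, which encodes a protein named for its likeness to serum amyloid A and which the Saa3 row also touches, had 2 rows of its own. These rows, labelled Gm45474 and Tmem86a, lay at 7.81 and 11.4 CPM on average and differed by 0.03 and 0.35 between LPS_EV and control_EV (edgeR adjusted p = 0.979 and 0.426).

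A row labelled Ptpn5 met Saa4 with 531 bp and Saa1 with 374 bp, both members of the serum amyloid A family. It lay between 16.3 and 23.0 CPM in all 12 libraries, with overlap between all groups. It differed from control_EV by -0.06 in LPS_EV, -0.08 in TGFB_EV and 0.09 in IL10_EV (edgeR adjusted p = 0.930, 0.941 and 0.9996). Reads of Saa1 and Saa4 cannot be told apart in it, and Saa1, Saa2 and Saa3 are close in sequence, so how reads of the family were divided was not tested.

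Around C3, the 8 neighbouring rows lay between -0.12 and 0.05 for LPS_EV against control_EV and 0 passed. The row that meets Vav1, a signalling protein of blood cells, held the most counts among them (labelled Clpp, 329.9 CPM) and differed by -0.04. Rows that meet the cytokine genes Tnfsf14 and Tnfsf9 differed by 0.02 and 0.05, and the Tnfsf9 row also meets Tubb4a. For TGFB_EV the neighbours lay between -0.28 and 0.09, and for IL10_EV between -0.21 and 0.31, with 0 calls.

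**Figure D3:**
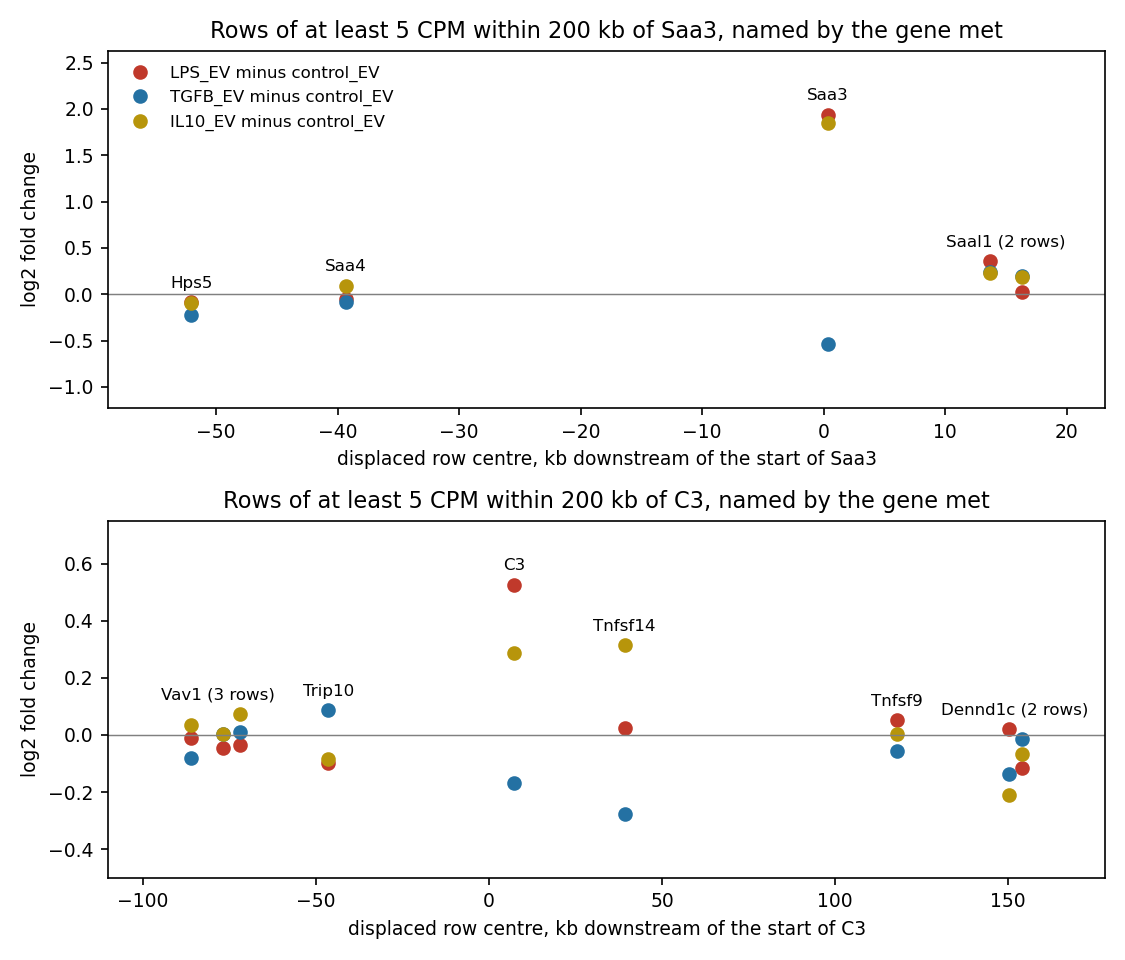
Log2 fold change of each treatment against control_EV (y axis) for rows of at least 5 CPM within 200 kb of Saa3 (top) and C3 (bottom), at the distance in kb from the gene's start (x axis, positive downstream). Points are rows after displacement, named by the gene they share the most bases with, and colour gives the comparison. The Saa3 row, at 1.94 for LPS_EV and 1.84 for IL10_EV, and the C3 row, at 0.53 for LPS_EV, stand above the rows beside them; in IL10_EV the row that meets Tnfsf14 is as high as that of C3.

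In the gene lists below, a row counts only for the gene it shares the most bases with, and only where its stretch was supported. A gene met second, like Saa1 above, is therefore counted as without a row. Of 45 complement genes listed, 27 had a row and 14 were tested through 17 rows. Called were 1 in LPS_EV against control_EV, C3, and 0 in TGFB_EV and in IL10_EV, where 0.817%, 0.038% and 0% of all rows were called. At these shares, 0 calls among the other 16 rows does not set them apart from other rows. The other 16 rows had a median log2 difference of 0.08 in LPS_EV, -0.04 in TGFB_EV and 0.03 in IL10_EV, against 0.00 over all rows tested in each. They ranged from -0.29 to 0.31 in LPS_EV, from -0.30 to 0.33 in TGFB_EV and from -0.26 to 0.35 in IL10_EV. Rows for Cfb and Cfd, which act with C3 in the alternative pathway, and for the C3a receptor gene C3ar1 were missing or had no counts, so the alternative pathway was measured through C3 alone.

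Among the receptors of C3 fragments, Itgax, a chain of complement receptor 4, went from 600.1 ± 40.3 CPM in control_EV to 675 ± 6.60 in LPS_EV (row labelled Bag3, SD, n = 3). The difference was 0.17 (edgeR adjusted p = 0.143). Another Itgax row, labelled 2610306O10Rik, differed by 0.10 from 110 CPM in control_EV (edgeR adjusted p = 0.619). Itgam, the alpha chain of complement receptor 3, differed by 0.09 (adjusted p = 0.611) from 230.1 CPM in control_EV. Among the regulators, Clu, a chaperone that binds the terminal complex, differed by 0.05 from 405 CPM, and Serping1, the C1 inhibitor, by -0.05 from 124 CPM (adjusted p = 0.832 and 0.877). C1qb, a chain of the classical recognition molecule C1q, was singled out after its values were seen as the lowest difference, -0.29 from 47.0 to 38.4 CPM (adjusted p = 0.207).

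Of 24 acute-phase genes, 10 had a row and 3 were tested: Saa3, Saa4 and Il1rn, the interleukin-1 receptor antagonist. Saa3 was chosen by the LPS_EV contrast and is not counted for it. Neither of the others passed in LPS_EV, and 0 of the 3 passed in TGFB_EV or IL10_EV, where 0.817%, 0.038% and 0% of all rows were called. Il1rn differed by -0.08 in LPS_EV, -0.73 in TGFB_EV and -0.11 in IL10_EV at about 4 CPM (edgeR adjusted p = 0.954, 0.789 and 0.9996). Lcn2, Hp and Cd14 were without a row with counts.

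**Figure D4:**
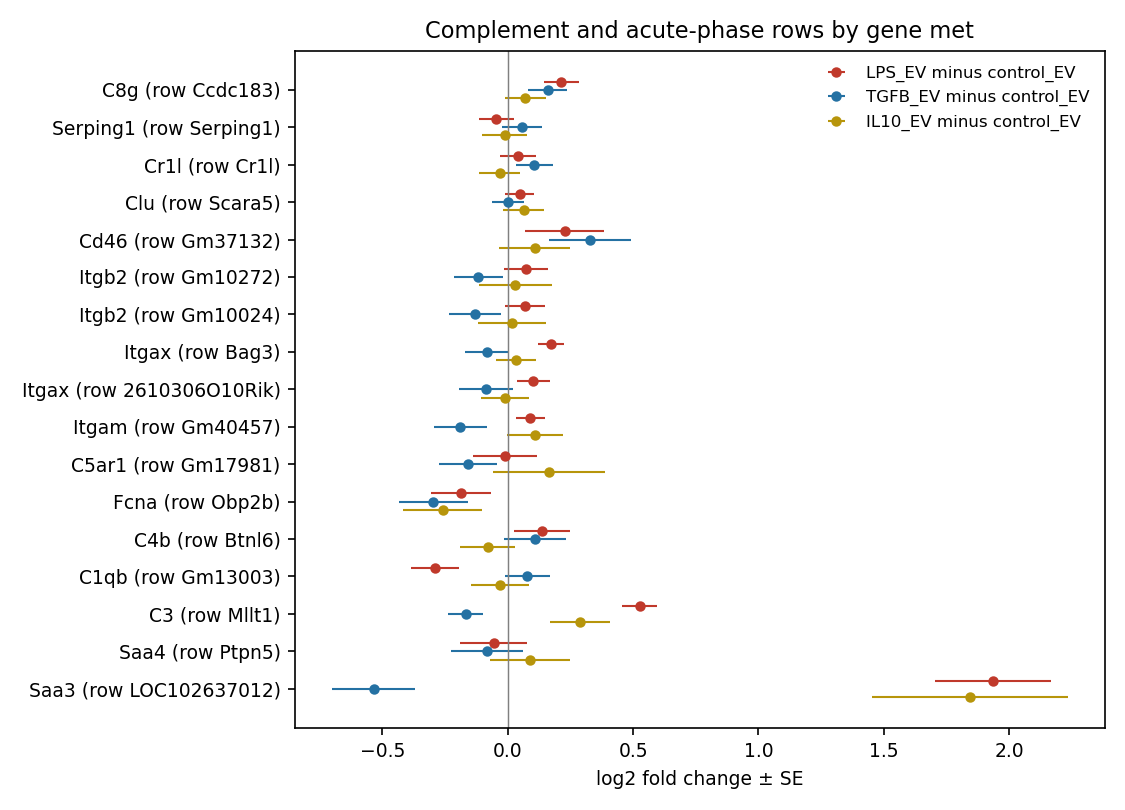
Log2 fold change against control_EV with its SE (x axis) for 17 tested rows of at least 5 CPM that meet complement or acute-phase genes (y axis, gene met with the row label in brackets). Points are edgeR estimates from 3 against 3 libraries, coloured by treatment. The Saa3 row at 1.94 and 1.84 and the C3 row at 0.53 for LPS_EV lie to the right of every other row, which stay between -0.30 and 0.33 in all comparisons.

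Receptors described for SAA proteins and regulators of acute-phase genes had 0 calls in all 3 comparisons with control_EV, in which 0.817%, 0.038% and 0% of all rows were called. At these shares, 0 calls among so few rows does not set them apart. Of 8 receptor genes 3 were tested. In LPS_EV against control_EV, Tlr4, the LPS receptor, differed by -0.23 from 24.8 CPM, Cd36, a scavenger receptor, by -0.25 from 60.2 CPM, and Ager, the receptor for advanced glycation end products, by 0.00 from 133 CPM (edgeR adjusted p = 0.531, 0.217 and 0.988). Of 16 regulator genes 9 were tested through 17 rows, with a median of 0.00 and a range of -0.32 to 0.54 in LPS_EV. The row with the most counts, for Nfkb2, an NF-kB subunit, lay at 391 CPM in control_EV and differed by 0.01 (edgeR adjusted p = 0.963). Next came rows for Il6st, the shared receptor chain of interleukin-6 cytokines, Nfkb1 (labelled Slc39a8) and Relb (labelled Pvr). They differed by -0.17, -0.09 and -0.02 (adjusted p = 0.217, 0.609 and 0.962). A Relb row labelled Ceacam19 was singled out after its values were seen, for the smallest adjusted p. It differed by 0.38 (adjusted p = 0.113), and a further Relb row, labelled Gm16184, by 0.02. Cebpb, Cebpd, Rela and Nfkbia were without a row with counts.

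The rows whose log2(CPM + 1) was most like that of the Saa3 row over the 12 libraries met Ccl3 (r = 0.970), Il1a (0.963), Slc7a11 (0.960), Oasl2 (0.928) and C3 (0.923), out of 7498 rows ranked. Those most like the C3 row met Vmp1 (0.979), Oasl2 (0.956), Tnfaip2 (0.955), Il1a (0.952) and Slc7a11 (0.944), with Saa3 at rank 14. The Ccl3 row also met Ccl4 and Rpl9-ps1, and the Oasl2 row also met 4930519G04Rik, so their levels may include reads of those genes. These coefficients describe libraries that share their 4 groups, and IL10_EV replicate 2 was the highest IL10_EV library in all of these rows. The row for Il1a, an interleukin-1 gene, had 63.5 ± 13.97 CPM in LPS_EV, 50.7 ± 16.3 in IL10_EV, 33.5 ± 1.45 in control_EV and 30.04 ± 1.36 in TGFB_EV (SD, n = 3 each), the same order of means as the Saa3 and C3 rows.

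Markers of other cell types had few counts or none. Of 14 microglia and macrophage markers 6 had rows, among them Csf1r, Spi1 and Ptprc. Their summed level ran from 2079 to 2312 CPM in control_EV and from 2164 to 2196 CPM in LPS_EV. It ran from 1779 to 2298 CPM in TGFB_EV and from 2009 to 2480.3 CPM in IL10_EV. Against control_EV 0 of 13 tested rows were called. With 0.817%, 0.038% and 0% of all rows called, this does not show that the markers were unchanged. Those without a row included Cd68, Trem2, Tyrobp, Cx3cr1, Adgre1, P2ry12 and Tmem119. Hepatocytes, fibroblasts and adipocytes are known sources of acute-phase proteins. Their summed markers reached at most 0.257, 1.34 and 0.174 CPM in any library. This covers the 3 of 5, 4 of 5 and 1 of 3 markers that had a row by the rule of the gene lists, with Col1a2 at 0 counts. For Alb, Apob, Col3a1 and Adipoq no row counted by that rule, so no level is given for them. Astrocyte markers summed to 0 in every library, and neuron markers had no row.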

How the data were processed

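Whole-number counts per Ensembl mouse gene, not normalised, were deposited by the authors for 12 libraries. Of 4 tables, a pair was identical, so 3 were used; control_EV columns were the same in all. Per the labels' protocols, cDNA came from SMART-Seq v4 and Nextera XT, kits that do not mark strand, so antisense reads cannot be told apart. DESeq2 is named per the submitters' processing notes; which aligner, counter, genome build or annotation went with it is not given in the sources used here. Of 57010 rows, 52029 matched a symbol; rows without one held 1.81% of counts. A level of 3 counts corresponds to between 0.220 and 0.286 CPM, counting error only, since reads carry no molecular identifiers.

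Comparisons with control_EV used edgeR 4.0.16 (R 4.3.3; TMM, filterByExpr with minimum count 10, quasi-likelihood test, Benjamini-Hochberg adjusted p under 0.05) on their own 6 libraries; pairs of treatments used all 12. Fold changes are log2 with their SE. Unless DESeq2 is named, the SE is the log2 difference divided by the square root of edgeR's F. That F uses a spread moderated across rows. For the Saa3 row DESeq2 gave a wider SE in every comparison. DESeq2 1.42.0, other size factors, no filter, other sample sets, a replicate block and leaving out libraries were alternatives.

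Rows were matched to genes by moving their exons (GENCODE M21, GRCm38) in steps of 100 bp, up to 1000 kb, by displacements constant over stretches of neighbouring rows. The fit rewarded rows of at least 20 CPM that met 479 widely expressed genes, with a penalty of 15 per change. Of 114 stretches 95 were supported, holding 96.2% of 50445 rows with a position. On simulated counts 99.5% of rows on chromosome 7 and 99.6% on chromosome 17 were placed within 3 steps, which does not measure accuracy on real counts.

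The members and gene lists were chosen with earlier results of these data known. Named rows are the members, list rows of at least 5 CPM that were called or else the 4 most abundant of each list, and the 5 rows most like each member. Libraries were not paired by replicate number, except in the replicate block.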

Additional observations from a re-analysis of the deposited data

How the results depend on the processing

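Of 217 alternative values computed for the 19 results, 180 kept their direction and, where the result has a test, their side of the threshold; the 2 differences that chose the rows have no test and were judged by size alone. The difference of the Saa3 row between TGFB_EV and control_EV passed without the filter on low counts (-0.53). That fit gave much narrower SEs on the same libraries, so passes without the filter carry little weight. For the Saa3 row the SE was 0.08 in place of 0.17 here, and 0.06 in place of 0.23 between LPS_EV and control_EV. Between IL10_EV and control_EV the difference of the Saa3 row passed without that filter (1.84), with the replicate block (1.63, edgeR adjusted p = 0.00281) and without IL10_EV replicate 2. Its range was 1.08 to 2.20 when leaving out libraries. Between LPS_EV and TGFB_EV it passed with DESeq2 (2.46), without the filter (2.46), with the 6 libraries alone (2.47), with the block (2.29) and without IL10_EV replicate 2 (2.46), LPS_EV replicate 1 (2.82) or TGFB_EV replicate 3 (2.28), over 2.08 to 2.82. Between TGFB_EV and IL10_EV it passed with DESeq2 (-2.37), without the filter (-2.38) and without IL10_EV replicate 1, over -2.72 to -1.62. Between LPS_EV and IL10_EV its sign reversed without LPS_EV replicate 2 (-0.29), IL10_EV replicate 1 (-0.26) and IL10_EV replicate 3 (-0.09), over -0.29 to 0.84.

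The C3 row lost its call for LPS_EV against control_EV with all 12 libraries (0.52), and passed for TGFB_EV against IL10_EV without the filter (-0.46). Complement rows called in LPS_EV were 0 with all 12 libraries and 2 with the block (C3 and Itgax). In TGFB_EV they were 2 without TGFB_EV replicate 3 (Fcna at -0.47 and Itgam at -0.35, chosen after their values were seen), over 0 to 2. Acute-phase rows called were 0 in LPS_EV with all 12 libraries, 1 in TGFB_EV without the filter, and in IL10_EV 1 without the filter, 1 with the block and 0 to 1 when leaving out libraries. The within-group r ran from 0.656 to 0.899 when leaving out libraries and was 0.773 without the 2 farthest ones; its exact permutation p lost the threshold in 9 of 12 such cases and without those 2. The cause of these changes was not tested.

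All rows called in LPS_EV against control_EV numbered 86, against 165 without the filter, 209 with the block, 53 without control_EV replicate 1, and 27 and 18 without LPS_EV replicates 2 and 3. Those called in TGFB_EV numbered 4, against 419 without TGFB_EV replicate 3, 17 with DESeq2 and 111 without the filter. For LPS_EV against TGFB_EV the 0 calls became 120 with the 6 libraries alone, 134 without TGFB_EV replicate 3, 230 without IL10_EV replicate 2 and 340 without the filter. Without the filter, the 0 calls in IL10_EV against control_EV, LPS_EV against IL10_EV and TGFB_EV against IL10_EV became 22, 18 and 160. Over all rows, same-numbered libraries did not go together as a rule. Of 18 same-numbered pairs, 5 had a correlation of deviations over 0.1 (range -0.453 to 0.266). Only 3 of 12 libraries correlated best with their own number. In the Saa3 row, however, replicate 1 was lowest and replicate 2 highest in control_EV, LPS_EV and IL10_EV, but not in TGFB_EV. Whether replicate numbers mark a shared batch was not tested. Summing all rows of the same gene was not run, since 1 row had Saa3 and 1 had C3 as the gene it shared the most bases with.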
